A study of Arabidopsis thaliana with 3 samples.

Results

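Cytochrome P450 genes were taken as the protein-coding genes of Arabidopsis whose annotated product contains the words cytochrome P450, which gave 248 of the 27444 protein-coding genes on chromosomes 1 to 5. They were examined for occupancy by UBP5, a ubiquitin-specific protease that acts on histone H2A, mapped by chromatin immunoprecipitation and sequencing (ChIP-seq). The plants carried genomic UBP5 fused to GFP, driven by the UBP5 promoter in the ubp5 deletion mutant, in the Col-0 background, and whole seedlings were collected 12 days after germination. Chromatin was cross-linked with EGS and formaldehyde and precipitated with an antibody against GFP in 2 independent biological replicates, and 1 input library, made without antibody, was sequenced. Wild-type plants without GFP were not analysed here, so peaks are relative to the input alone. A gene was called bound when a peak of each replicate overlapped its body, from annotated start to annotated end, by 1 bp or more. Replicate 1 had 10266 peaks with a median fold enrichment of 2.31 and replicate 2 had 10898 peaks with a median of 1.92. The peak lists give no read totals, so the depth behind each peak is not known from them. The study lists several times more uniquely mapped reads for replicate 2 than for replicate 1, and these totals were not used here.

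P450 enzymes are heme-thiolate monooxygenases that insert an oxygen atom into small organic molecules, with electrons delivered by a reductase. Plants hold unusually many of them. They make and break down hormones, build the cuticle and pigments, and produce defence compounds, and many are expressed in a single organ, cell layer or stress state. Genes with such restricted expression are often marked by H3K27me3 and silenced by Polycomb Repressive Complex 2 (PRC2) where they are not in use. P450 genes are grouped by sequence into families (the CYP number) and, above these, clans.

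Few P450 genes carried a UBP5-GFP peak. Of the 248 genes, 17 (6.85%, exact 95% interval 4.04 to 10.7%) were bound, against 7954 of 27196 other protein-coding genes (29.2%, 28.7 to 29.8%). Over all protein-coding genes the share was 29.0%. These intervals cover counting error only, and neighbouring and duplicated genes are not independent. In whole seedlings, occupancy in a few cells and weak occupancy in many cells cannot be told apart.

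Each replicate gave a similar picture on its own. A peak of replicate 1 lay on 22 P450 genes, where 33.8% of all protein-coding genes had one. A peak of replicate 2 lay on 18, where 31.4% of all protein-coding genes had one. No peak of either replicate touched 225 of the 248 genes (90.7%), and 6 more had a peak in 1 replicate only.

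Gene length bears on such a count because longer genes have more room for a peak, so shares were compared within 10 bins of gene length. The P450 genes and the other protein-coding genes had nearly the same median length, 2053 and 2078 bp. Weighting the other genes to the lengths of the P450 genes gave a bound share of 32.8%, higher than their crude share, because most P450 genes are of middle length. In the 4 bins from 1490 to 2793 bp, which hold 196 of the 248 members, 12 P450 genes (6.12%) were bound against 3522 of 10781 other genes (32.7%). Among the shortest and the longest genes the P450 counts were too small to place: 1 of the 11 P450 genes of the 3 shortest bins was bound, and 2 of the 6 genes longer than 4233 bp.

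**Figure D1:**
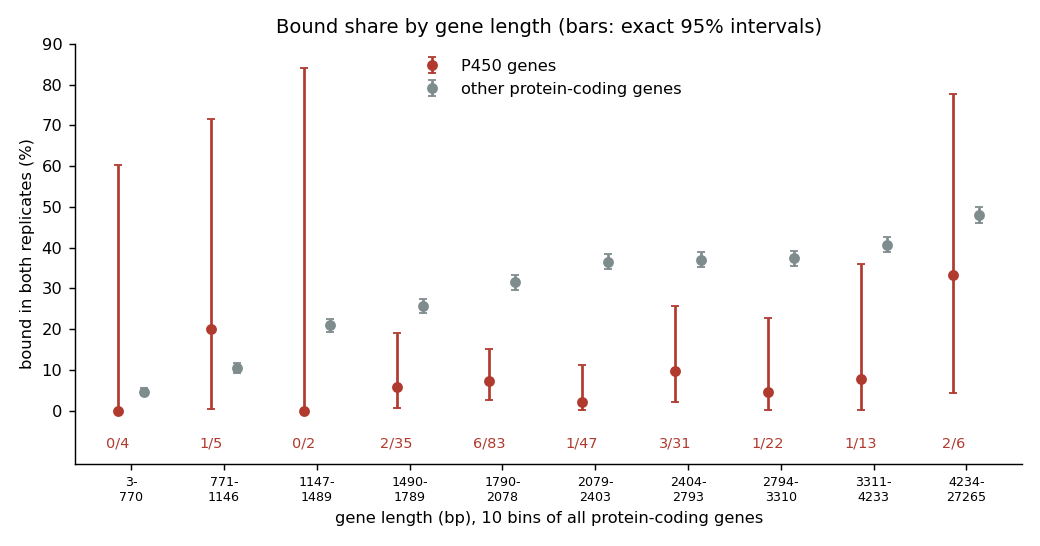
Share of genes bound in both replicates (y axis, percent) in 10 bins of gene length (x axis, bp), for P450 genes (red, left, with bound genes over members below) and other protein-coding genes (grey, right); bars are exact 95% intervals. From 1490 to 3310 bp the P450 points lie between 2.13 and 9.68%, and those of other genes between 25.6 and 37.4%.

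Exon number was examined in the same way, since P450 genes have few introns. The median was 2 exons in P450 genes and 4 in other protein-coding genes. Among single-exon genes, 5 of 47 P450 genes (10.6%, interval 3.55 to 23.1%) and 15.1% of other genes were bound. The P450 genes among these had a median length of 1858 bp and the others 1084 bp, and other genes of any exon number weighted to the lengths of the 47 had 28.9%. With introns, the counts were 7 of 88 P450 genes (7.95%) against 21.2% of other genes with 2 exons, and 3 of 68 (4.41%) against 38.4% with 4 or more. Weighting the other genes by length and exon class together gave 31.6%, a weighting chosen after the data were seen.

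P450 genes often lie in tandem arrays of near copies, and reads were kept only where they aligned uniquely, so it was asked how much of each gene could be seen. Every 100-base window of each gene was compared with the rest of the genome, organelles included. On average 98.9% of the windows of a P450 gene and 98.2% of those of another protein-coding gene occurred once. Fewer than 99% of windows were unique in 23 P450 genes, none of which was bound, and the bound share among the other 225 was 7.56%. Of the 120 P450 genes directly beside another P450 gene, 4 were bound (3.33%, interval 0.916 to 8.31%), where other genes of like length had 32.0%. Of the 128 without such a neighbour, 13 were bound (10.2%, 5.52 to 16.7%), where other genes of like length had 33.5%. The 13 include the 4 bound genes without a CYP name and CYP77A5P, which are described below. CYP91A2 is also among the 13, since its direct neighbours are not P450 genes. Genes of other kinds next to P450 genes were bound in 92 of 319 cases (28.8%), and 74 of the 231 unbound P450 genes had a bound neighbour of another kind.

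The bound genes are spread over all 5 chromosomes, with 7 of 71 members on chromosome 3 and 2 or 3 on each of the others. In each of the 17, exactly 1 peak of each replicate lay on the gene, and both summits lay inside the gene body. The smallest overlap of a peak with its gene was 252 bp. The fold enrichment, which is the ratio of the IP signal at the summit to the local level taken from the input, was higher in replicate 1 than in replicate 2 at all 17, by a median factor of 1.25 (range 1.04 to 1.42). Summits of the 2 replicates lay a median of 39 bp apart (range 3 to 167 bp).

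CYP77A9 had the highest enrichment. Its values were 3.87 in replicate 1 and 3.01 in replicate 2. It is the only P450 gene above 3 in both replicates. CYP77A9 (AT5G04630, chr5:1330437-1332152) is a single-exon gene of 1716 bp in clan 71, and it has no assigned enzymatic role here. The CYP77 family oxidises fatty acids, and its members CYP77A4 and CYP77A6 are known for epoxidation and for in-chain hydroxylation in cutin synthesis.

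Of the 6 CYP77 members, 4 were bound, the highest count of any family. This is a share of 66.7% (interval 22.3 to 95.7%), where other genes of like length had 31.3%. CYP97, with 2 bound genes of 3, had the same share. Besides CYP77A9 the bound CYP77 genes were CYP77A5P, UNE9 and CYP77A4. The share rests in part on CYP77A5P, which lacks the heme-binding signature, and on CYP77A4, whose peak also lies within another gene, as described below. CYP77A5P (AT3G18270, chr3:6261733-6264361) had 2.82 in replicate 1 and 2.17 in replicate 2, UNE9 (AT3G10560, chr3:3299893-3301704) had 2.20 and 1.98, and CYP77A4 (AT5G04660, chr5:1335898-1337670) had 2.22 and 1.81. The annotation gives CYP77A7 as another name of UNE9. CYP77A6, which lies directly beside UNE9, had a peak at 1.51-fold enrichment in replicate 2 and none in replicate 1, and CYP77B1 had none in either. All 6 are called from uniquely placed reads, and the 3 bound single-exon genes and CYP77A5P had 100% unique windows.

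In the CYP77A genes the summits lay in coding sequence. The coding sequences of CYP77A4, UNE9 and CYP77A6 were 77.0, 78.5 and 76.4% identical to that of CYP77A9 in a global alignment, and that of CYP77B1 55.2%. Counted on the coding sequence of CYP77A9 from 1 at the start codon, the summits of replicate 1 and replicate 2 fell at 527 and 532 in CYP77A9, at 616 and 518 in CYP77A4, and at 367 and 389 in UNE9. The summit of replicate 2 in CYP77A6 fell at 563. Those of CYP77A5P fell at 233 and 270, but its gene model has 6 exons and only 49.1% identity, so the placing is less sure. The stretch around the CYP77A9 summit is printed because it is the P450 sequence with the highest enrichment and because its paralogs can be read against it. The 61 bases run 5′ to 3′ on the coding strand, from TAIR10.1. In CYP77A9 the capital is the summit base of replicate 1 (chr5:1331074-1331134), and in the other 3 genes capitals mark bases that differ from CYP77A9.
CYP77A9: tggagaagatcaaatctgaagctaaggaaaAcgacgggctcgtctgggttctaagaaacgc
CYP77A4: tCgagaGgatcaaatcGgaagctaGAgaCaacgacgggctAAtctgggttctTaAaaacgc
UNE9: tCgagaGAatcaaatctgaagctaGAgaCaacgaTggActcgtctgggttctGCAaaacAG
CYP77A6: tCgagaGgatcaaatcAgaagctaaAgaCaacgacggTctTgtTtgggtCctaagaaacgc
Of the 61 bases, CYP77A4 shared 51, UNE9 48 and CYP77A6 52 with CYP77A9. CYP77A6, called in 1 replicate, shared at least as many bases with CYP77A9 in this stretch as the 2 bound paralogs did. The stretch is centred on the CYP77A9 summit and, among the paralogs shown, holds only the replicate 2 summit of CYP77A4. The replicate 1 summit of CYP77A4, both summits of UNE9 and the summit of CYP77A6 lie outside it. Whether these bases bear on binding was not tested.

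The peak on CYP77A4 cannot be given to that gene alone. CYP77A4 lies wholly within AT5G04670 (chr5:1335873-1341534), a gene on the opposite strand annotated as an Enhancer of polycomb-like transcription factor, and ChIP reads carry no strand. AT5G04670 had 2 peaks in each replicate. The stronger one, with fold enrichments of 4.25 and 3.04, lay 438 and 416 bp from the start of AT5G04670, at the end away from CYP77A4. The weaker one is the peak on CYP77A4.

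**Figure D2:**
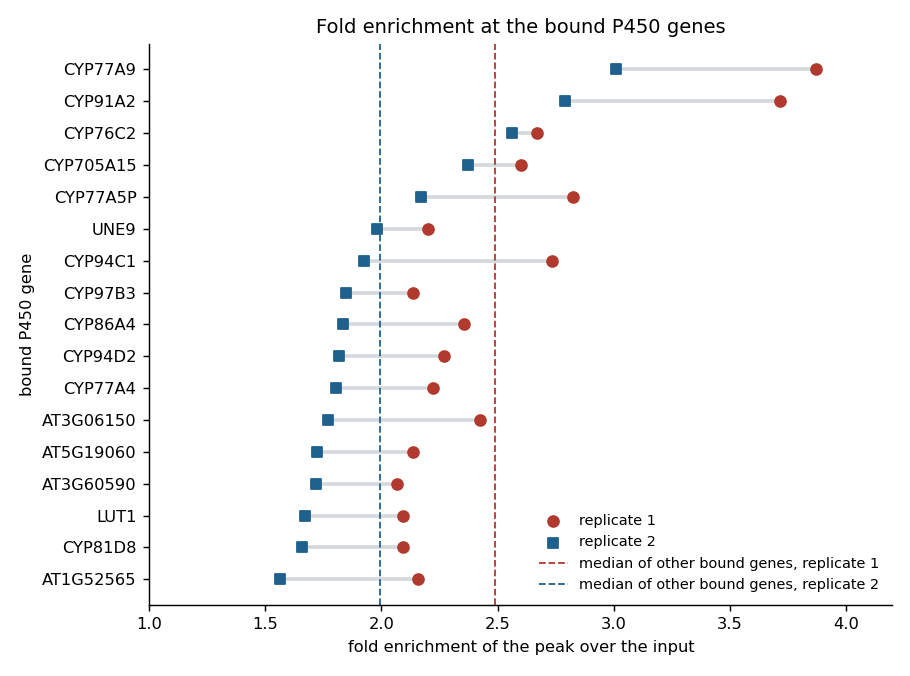
Fold enrichment over the input (x axis) of the peaks on the 17 bound P450 genes (y axis, ordered by the lower of the 2 replicates), with replicate 1 as red circles, replicate 2 as blue squares and dashed lines at the medians of the other bound genes. Replicate 1 is above replicate 2 in all 17, and 11 genes of replicate 1 and 12 of replicate 2 lie left of their dashed line.

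Across the 17 bound genes the fold enrichment had a median of 2.27 in replicate 1 and 1.84 in replicate 2. At other bound protein-coding genes the medians were 2.49 and 1.99. The interquartile ranges overlapped, at 2.14 to 2.67 for P450 genes against 2.15 to 3.02 for other genes in replicate 1, and 1.72 to 2.17 against 1.72 to 2.42 in replicate 2. CYP77A9 stood above 91.2% of the other bound genes in replicate 1 and above 89.5% in replicate 2. A fold enrichment of 3 or more was reached by 2 of 17 P450 genes and 25.8% of other bound genes in replicate 1, and by 1 of 17 and 10.6% in replicate 2.

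The gene with the next highest enrichment was CYP91A2, which the annotation also names CYP81F1. Enzymes of the CYP81F subfamily hydroxylate the ring of indole glucosinolates, defence compounds of the cabbage family. CYP91A2 (AT4G37430, chr4:17597110-17598958) had 3.71 in replicate 1 and 2.79 in replicate 2. Its summits lay 1358 and 1401 bp from the start, in the second coding exon, at about 73.4 and 75.8% of the gene length. A non-coding RNA gene on the opposite strand, AT4G37432, covers both summits. The 61 bases around its replicate 1 summit (chr4:17598438-17598498, summit base in capitals) are shown because the summit of this gene lies so far from the start.
CYP91A2: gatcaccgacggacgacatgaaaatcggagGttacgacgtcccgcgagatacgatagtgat
CYP91A2 closes an array of 9 CYP81 genes within 43060 bp of chromosome 4, which also holds CYP81H1, CYP81D5, CYP81D4, CYP81D3, CYP81D2, CYP81D8, CYP81F3 and CYP81F4. Only CYP91A2 and CYP81D8 of these 9 were bound. CYP81D8 (AT4G37370, chr4:17569740-17571743), a gene often seen among those induced by stress and foreign chemicals, had 2.09 and 1.66, with summits 180 and 215 bp from its start, the nearest to a start of all 17. The array thus holds a bound gene with its summits near the 3′ end and another with its summits at the 5′ end, and 7 P450 genes that were not bound.

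CYP76C2 also had its peak near the 3′ end. Its relatives in the CYP76C subfamily oxidise monoterpene alcohols such as linalool. CYP76C2 (AT2G45570, chr2:18779321-18781973) had 2.67 in replicate 1 and 2.56 in replicate 2, the closest pair of values of the 17. The summits lay 2251 and 2311 bp from its start, in the 3′ untranslated region. The nearest annotated start was that of the downstream gene CYP76C1, at 1046 and 986 bp, and CYP76C1 itself was not bound. The peak holds long runs of the GA repeat, of which both sites are printed, on the strand of the gene with the repeat in capitals (chr2:18779479-18779508 and chr2:18779615-18779644).
CYP76C2 site 1: cgataGAGAGAGAGAGAGAGAGAGAttgag
CYP76C2 site 2: agatggctaGAGAGAGAGAGAgtgacagaa

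CYP705A15 (AT3G20080, chr3:7007869-7013694) had 2.60 in replicate 1 and 2.37 in replicate 2. It is the only bound gene of the 24 CYP705 members, a family in which some enzymes act in triterpene clusters. The gene record spans 5826 bp and several transcripts with different starts. The summits lay 313 and 234 bp from the outermost start, which is 592 and 671 bp upstream of the transcript with the longest coding sequence. Which of these starts is used in seedlings was not tested. Among the other CYP705 genes, CYP705A21 was enriched 2.05-fold in replicate 1 and had no peak in replicate 2.

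Hormone and lipid P450 genes of clan 86 gave 3 bound genes of 32. CYP94C1 (AT2G27690, chr2:11809279-11811280) encodes an enzyme that oxidises the active jasmonate JA-Ile to its carboxylated form. It had 2.74 in replicate 1 and 1.92 in replicate 2, the widest ratio of the 17, with summits only 3 bp apart, 433 and 430 bp from the start in its single exon. Its relatives CYP94B1, CYP94B2 and CYP94B3, which act on the same hormone or close to it, had no peak in either replicate. CYP94D2 (AT3G56630, chr3:20978901-20980772) had 2.27 and 1.82, with summits 684 and 517 bp from the start. CYP86A4 (AT1G01600, chr1:218834-221286), a fatty acid omega-hydroxylase of cutin synthesis, had 2.36 and 1.84, with summits 1914 and 1897 bp from its start, in the second coding exon. CYP86A8, a further omega-hydroxylase of the same subfamily, had a peak in replicate 1 only (1.78), 1861 bp from its start.

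In clan 97, 2 of 3 members were bound. These enzymes hydroxylate the rings of carotenoids in the plastid and are needed in green tissue generally. LUT1 (CYP97C1, AT3G53130, chr3:19692757-19697542), which hydroxylates the epsilon ring in lutein synthesis, had 2.09 in replicate 1 and 1.67 in replicate 2. CYP97B3 (AT4G15110, chr4:8629647-8633118) had 2.14 and 1.85. Both genes have many exons (12 and 14) and their summits lay near the 5′ end, at 541 and 502 bp in LUT1 and at 361 and 320 bp, in the first intron, in CYP97B3. CYP97A3, the beta-ring hydroxylase, had no peak. The enrichment was modest, as LUT1 stood above 19.9% of the other bound genes in replicate 1 and above 19.6% in replicate 2.

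**Figure D3:**
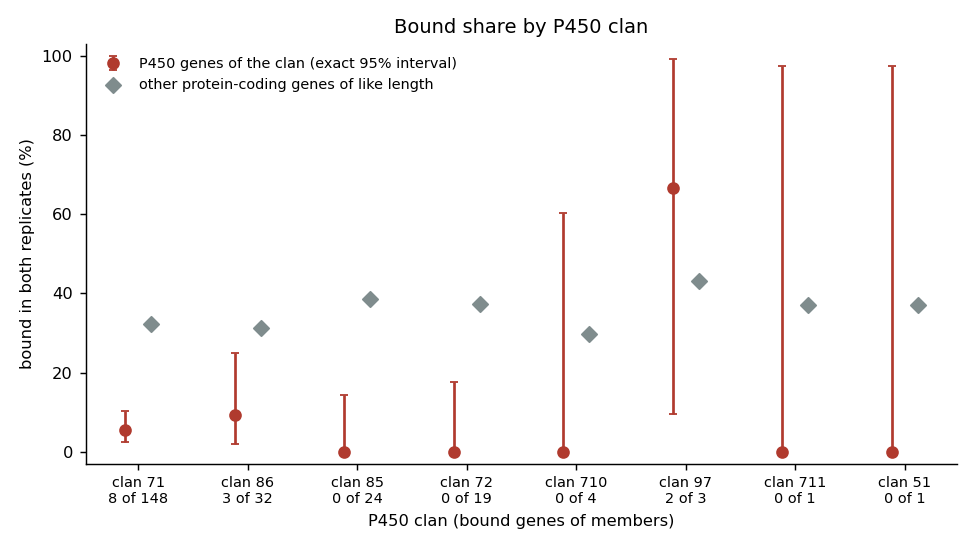
Share of genes bound in both replicates (y axis, percent) in each P450 clan (x axis, with bound genes and members), as red points with exact 95% intervals, beside the share of other protein-coding genes weighted to the same lengths (grey diamonds). Clans 71, 85 and 72 have exact intervals that end at 10.4, 14.2 and 17.6% (for 0 bound genes these end above the limit of 3 over the number of genes), and 1 clan, clan 97 with 3 genes, has its point above the grey diamond.

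By clan, bound genes were found in 3 of 8. Clan 71, the largest, with families of specialised metabolism, had 8 bound genes of 148 (5.41%, interval 2.36 to 10.4%), where other genes of like length had 32.3%. Clan 86, of fatty acid oxidation, had 3 of 32 (9.38%, 1.98 to 25.0%), where other genes of like length had 31.2%. Clan 97 had 2 of 3, with an interval of 9.43 to 99.2%. None of the 24 members of clan 85 was bound, which allows a share of up to 12.5% (3 over the number of genes). None of the 19 of clan 72 was bound, which allows up to 15.8%. Other genes of like length had 38.5% beside clan 85 and 37.4% beside clan 72. The 3 clans left, of sterol and strigolactone enzymes, hold 6 members in all and had no bound gene. Within clan 71 the CYP71 family, the largest of all, had no bound gene among its 50 members, which allows a share of up to 6%, and within clan 86 none of the 13 CYP96 genes was bound.

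By role, 83 P450 genes were placed on lists of known function, and 7 of them were bound (8.43%). The share was 6.85% over all 248 P450 genes and 29.0% over all protein-coding genes, not matched for length. The lists hold only genes with the product text used here. They lack C4H, which was bound, and FAH1, KAO2, GA3, BR6OX1 and BR6OX2, which were not, all counted in the last section. The lists for cutin, suberin, wax and sporopollenin held 16 genes, of which CYP86A4, UNE9 and CYP77A4 were bound. UNE9 was placed there with its family. Other genes weighted to the lengths of this list had a share of 33.1%. Those unbound include CYP86A2, CYP86B1, CYP86A1 and CYP96A15 of cuticle, suberin and wax synthesis, CYP703A2 and CYP704B1 of the pollen wall, and CYP77A6. Carotenoid hydroxylation had 2 bound genes of 3, the glucosinolate list 1 of 12 (CYP91A2) and the jasmonate list 1 of 4 (CYP94C1), where other genes of like length had 43.2, 35.4 and 31.5%. With 3, 12 and 4 genes these counts do not place a list above or below other genes. The glucosinolate genes without a call were CYP79F1, CYP79F2, CYP79B2, CYP79B3, CYP79C1, CYP79C2, CYP83A1, CYP83B1, CYP81F2, CYP81F3 and CYP81F4, which include the entry steps for the methionine- and tryptophan-derived compounds.

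The hormone lists outside jasmonate had no bound gene. These were brassinosteroid synthesis (DWF4, CPD, ROT3 and CYP90D1), brassinosteroid inactivation (BAS1 and CYP72C1), abscisic acid breakdown (CYP707A1 to CYP707A4), cytokinin hydroxylation (CYP735A1 and CYP735A2), strigolactone and carlactone (CYP711A1 and CYP722A1) and gibberellin (CYP88A3, CYP714A1 and CYP714A2). CYP88A3, an ent-kaurenoic acid oxidase, reached 2.11-fold enrichment in an intron 376 bp from its start in replicate 1, without a peak in replicate 2. Neither was any of the 6 CYP78A genes of organ growth bound, nor any of the 9 genes of the triterpene clusters, the 5 of camalexin and indolic defence, which include PAD3, CYP71A12 and CYP71A13, the 5 of phenylpropanoid, lignin and flavonoid synthesis, which include TT7 and CYP98A3, or the 5 of sterol synthesis. CYP82C4, of iron mobilisation, was not bound. Other genes of like length had shares of 38.5 to 43.6% beside these hormone lists and 31.3 to 36.5% beside the other lists. With so few genes on each list, 0 bound of 9 still allows a share of up to 33.3%. Taken singly, none of these lists can therefore be placed below other genes.

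The remaining 4 bound genes carry the product text cytochrome P450 family protein and no CYP name. They are AT3G06150 (2.42 in replicate 1 and 1.77 in replicate 2), AT5G19060 (2.14 and 1.72), AT3G60590 (2.07 and 1.72) and AT1G52565 (2.16 and 1.56). The translated coding sequences were searched for the heme-binding signature around the cysteine that holds the iron in P450 enzymes. It was found in 228 of the 248 members and in none of these 4. The bound share was 12 of 228 (5.26%) with the signature and 5 of 20 (25.0%, interval 8.66 to 49.1%) without it, the fifth being CYP77A5P. Other genes of like length had 33.5% beside the genes with the signature and 23.9% beside those without it, so the share without the signature was near that of other genes. For AT1G52565, whose coding sequence has 390 bases, and for the other 3, the product text is the only evidence used here that they belong to the family. AT3G06150 has its summits 888 and 1012 bp from its own start and 595 and 719 bp from the start of AT3G06160, a B3-type transcription factor gene that was not bound.

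The summits on bound P450 genes lay further into the gene than at other bound genes. Measured from the gene's own start, the median distance at P450 genes was 579 bp (replicate 1) and 517 bp (replicate 2), against 328 and 330 bp at other bound protein-coding genes. Both summits lay 0 to 500 bp downstream of the start in 7 of 17 P450 genes (41.2%, interval 18.4 to 67.1%) and in 6122 of 7954 other bound genes (77.0%, 76.0 to 77.9%). In 3 genes, CYP91A2, CYP86A4 and CYP76C2, both lay more than 1000 bp into the gene. Among the 13 bound genes with a CYP family, the share with both summits in the first 500 bp was 46.2%. No test was made of the difference from other bound genes.

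Exon number and peak strength moved with this distance among other bound genes, and their part in the difference was not tested. Of 12 bound P450 genes with 1 or 2 exons, 4 (33.3%) had both summits in the first 500 bp. Among other bound genes with 1 or 2 exons and 1490 to 2793 bp of length, the share was 67.7%. Among other bound genes whose lower fold enrichment did not exceed the P450 median it was 72.7%. Among other bound single-exon genes the share was 60.4%. Of the 5 bound P450 genes with 3 or more exons, 3 (60%) had both summits in the first 500 bp, against 79.8% of other such genes. The P450 shares lay below those of other genes, but they rest on 12 and 5 genes.

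Both summits lay in a coding exon in 12 of the 17 genes and in an intron in 2, CYP97B3 and AT3G60590. In CYP94D2 the replicate 1 summit lay in a coding exon and the replicate 2 summit in the intron. No summit of a bound P450 gene fell in the 5′ untranslated region of the transcript with the longest coding sequence, where 15.3 and 13.7% of the summits of other bound genes fell in replicates 1 and 2. Those of CYP705A15 lay in an untranslated first exon of 3 of its 6 annotated transcripts. A coding exon held 76.5 and 70.6% of the P450 summits, against 51.9 and 52.8% of the others. In 15 of 17 P450 genes, and in 94.1% (replicate 1) and 93.4% (replicate 2) of other bound genes, the nearest annotated start was the gene's own.

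**Figure D4:**
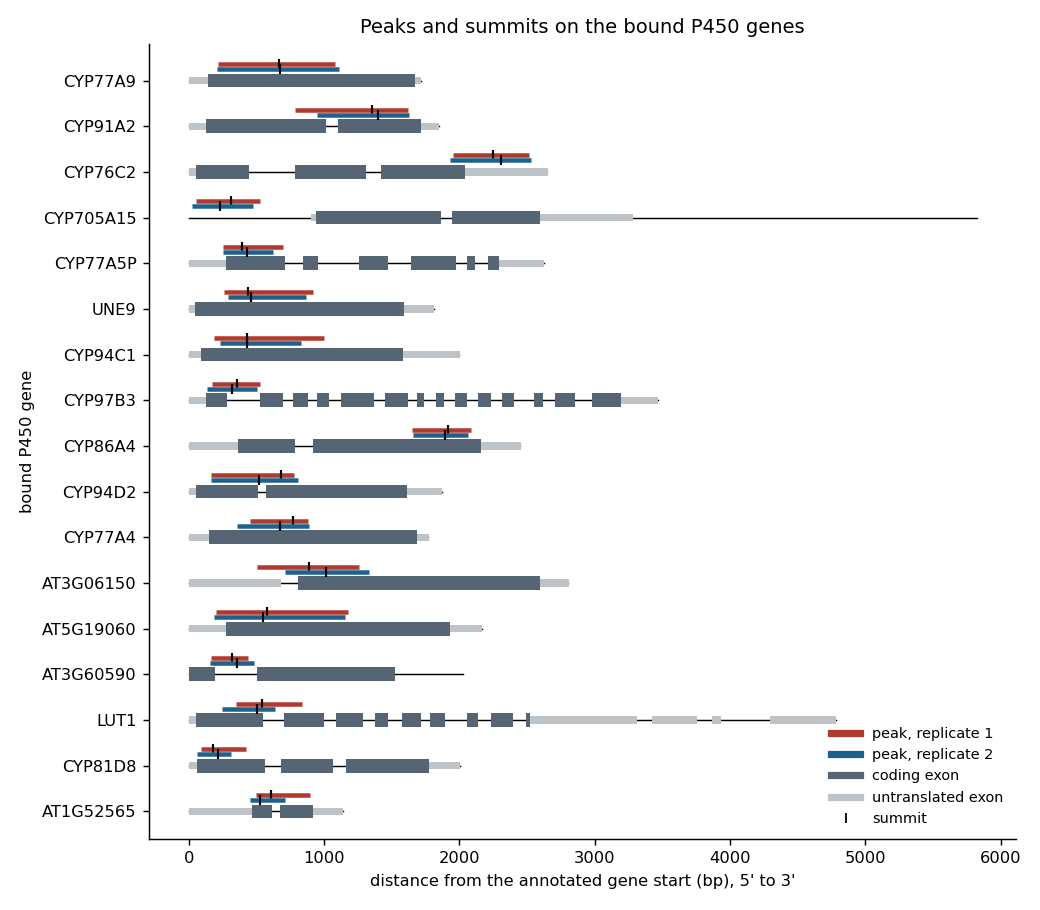
The 17 bound P450 genes drawn to scale from their annotated start (x axis, bp, 5′ to 3′), with coding exons dark, untranslated exons light (transcript with the longest coding sequence), peaks of replicate 1 in red and of replicate 2 in blue, and summits as black ticks. CYP91A2, CYP76C2 and CYP86A4 have their summits more than 1000 bp from the start, and in CYP705A15 they lie before the drawn exons.

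**Figure D5:**
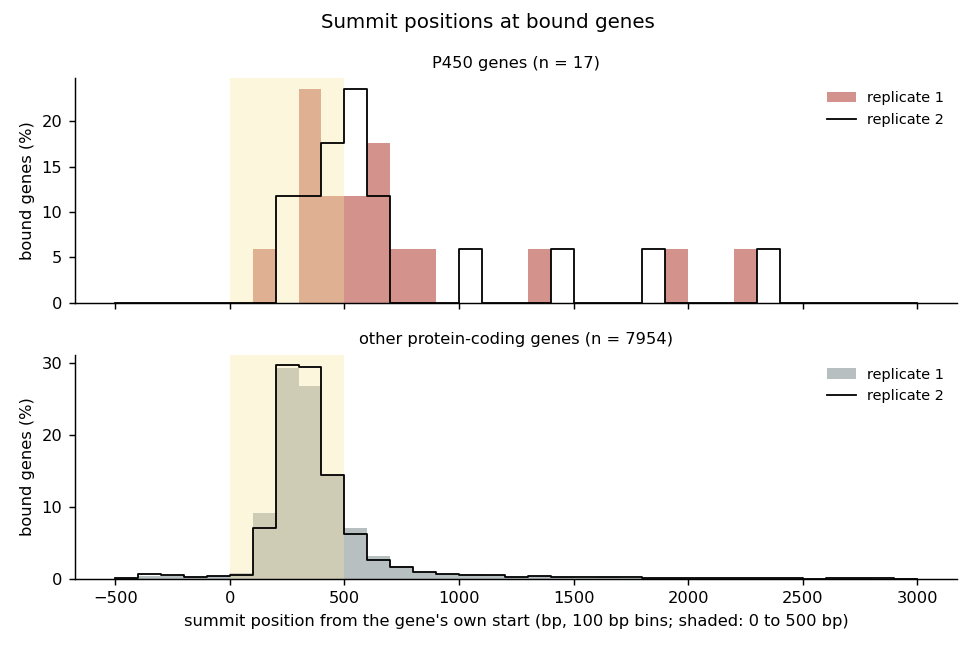
Summit position from the gene's own start (x axis, bp, 100 bp bins, 0 to 500 bp shaded) as a share of bound genes (y axis, percent), for the 17 P450 genes above and the 7954 other bound protein-coding genes below, with replicate 1 as bars and replicate 2 as a line. The medians are 579 and 517 bp at P450 genes and 328 and 330 bp at other genes.

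Sequence words linked to the recruitment of PRC2 in Arabidopsis were counted within 100 bp of each summit, on both strands. The Telobox was searched as AAACCCTA and the GA repeat as GAGAGAGA. None of the 17 bound P450 genes had a Telobox there, which allows a share of up to 17.6%, while 20.1% of the other bound genes had one near a summit of either replicate. The GA repeat was near a summit of 2 of 17 P450 genes (CYP76C2 and CYP81D8) and of 9.32% of other bound genes. Sites of the 2 words can share at most 1 base and were counted apart.

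Single Teloboxes did occur elsewhere, in the replicate 1 peak of LUT1 and in the replicate 2 peak of CYP81D8. These 2 sites are shown with the word in capitals, on the strand of the gene. They are the only ones found in the peaks of the 17 genes. Both lie at or just past the edge of the 100 bp window around the replicate 1 summit of their gene. Within 200 bp of a summit, 2 of the 17 bound P450 genes had a Telobox, against 34.4% of other bound genes. The LUT1 site (chr3:19693389-19693418) lies in an intron and reads as the reverse complement of the word. The CYP81D8 site (chr4:17571650-17571679) spans the end of the 5′ untranslated region and the first codons, and a GA repeat follows in the same gene (chr4:17571618-17571647).
LUT1: aactctaatttTAGGGTTTagattccaatc
CYP81D8 Telobox: catggaaaccaAAACCCTAattttctcaat
CYP81D8 GA repeat: tcttcgttgtTCTCTCTCTCatttacttaa
The same words were counted from 500 bp before to 250 bp after every gene start. A Telobox lay there in 26 of 248 P450 genes (10.5%) and in 16.7% of other protein-coding genes, and a GA repeat in 44 (17.7%) and in 25.1%. Among bound genes alone a Telobox was there in 1 of 17 P450 genes and in 25.3% of the others. A match says only that the letters are there.

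The genes just outside the rule were the 6 with a peak in 1 replicate and a few with a peak close by. Besides CYP88A3, CYP86A8, CYP705A21 and CYP77A6 they were AT1G66540 (1.76) and CYP81K1 (1.71), both in replicate 1. Just inside the rule, AT1G52565 had the lowest enrichment of the 17, at 2.16 and 1.56. Peaks of both replicates came within 30 bp of CYP89A9 and 63 bp of CYP71B10 without touching them. Adding 500 bp upstream of each gene brought in CYP704A2, CYP712A2 and CYP81G1, for 20 bound genes of 248. The peak before CYP704A2 was among the strongest at any P450 gene, at 3.91 in replicate 1 and 2.74 in replicate 2, with summits at -301 and -377 bp from the start.

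Other large families of plant metabolism were counted beside the P450 genes. UDP-glycosyltransferases, which attach sugars to hormones and defence compounds, were bound in 21 of 128 cases (16.4%, interval 10.5 to 24.0%), where other genes of like length had 31.7%. Glutathione S-transferases were bound in 11 of 56 (19.6%, 10.2 to 32.4%), where other genes of like length had 22.3%. Genes with 2-oxoglutarate in the product text, mostly oxygenases that use it as a co-substrate, were bound in 28 of 107 (26.2%, 18.1 to 35.6%), where other genes of like length had 31.8%. The interval of the P450 share, 4.04 to 10.7%, ended below that of the 2-oxoglutarate genes and just reached the lower ends of those of the other two families. The differences between families were not tested.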

How the data were processed

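ChIP-seq of UBP5-GFP was available as peak lists of 2 IP replicates of Arabidopsis seedlings, called against 1 input, for which no separate file was used here. The authors cleaned reads in SOAPnuke, mapped them with Bowtie2 2.4.5 (TAIR10), kept those mapped uniquely and called peaks with MACS3 3.0.0 per replicate, and the smallest deposited −log10 q-values, 2.03 and 2.01, fit a limit of 0.01. The deposited fold enrichment divides the IP signal at the summit by the local input level, as a ratio, and the deposited −log10 p-value and integer score were not used. Near-identical copies may be under-represented, since only unique alignments were kept, and how far was not tested. Depth could not be read from the lists, and the replicates' read totals differ several-fold in the study's own listing.

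Genes, transcripts and sequence came from RefSeq TAIR10.1. A gene's share is compared with that of other protein-coding genes weighted to the same 10 length bins. The transcript with the longest coding sequence gave exons. Intervals are exact (Clopper-Pearson, 95%, scipy 1.17.1). Where 0 genes were bound, the limit is 3 over the number of genes. No test was made, since genes of 1 genome are not replicates. The named genes were the 12 bound genes ranked first by the lower of their 2 fold enrichments, all bound genes of the role lists, and those with a peak in 1 replicate. Unbound genes of the role lists were named in full for some lists and by examples or by count alone for others. The other 4 bound genes, genes with a peak close by or upstream, and genes that share or neighbour a peak were named after their values were seen. CYP clans and role lists came from general knowledge. Members and lists were chosen with earlier results of these data known. Overlap and weighting were tested on simulated data.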

Additional observations from a re-analysis of the deposited data

How the results depend on the processing

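The P450 share stayed below that of other genes of like length in all 10 alternatives that gave both values, at 0.106 to 0.233 of it, against 0.209 as reported. Stricter peak thresholds leave few genes: at a q-value under 1e-20 in both lists 3 P450 genes (1.21%) were bound, against 11.4% of other genes of like length, and at a fold enrichment of at least 3 in both lists 1 (0.403%), against 3.35%. The share of other genes of like length was 31.1% at a q-value under 1e-05, 31.9% with a summit of each replicate inside the gene, 35.5% with 500 bp upstream added, 33.3% for members with a CYP family, 33.8% with coding in place of gene length, and 31.6% with exon classes added, a choice made after seeing the data. With 1 replicate left out, 18 to 22 P450 genes (7.26 to 8.87%) were bound, against 35.1 to 38.1% of other genes of like length. Restricting members to CYP families left 13 bound genes (5.60%), and, chosen after seeing the data, restricting to the heme signature left 12. With 200 bp on each side of a summit, 2 of the 17 bound P450 genes (11.8%) had a Telobox in place of 0, against 34.4% of other bound genes. No paired analysis was possible because each gene is called from both replicates at once and there is no second group of IP samples. Depth, a line without GFP and the input signal itself limit what an absent peak can show.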

Other observations

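Enzymes that belong to the P450 system but fall outside the product text were counted as well, a choice made after the values were seen. Of 9 P450 genes known by their CYP name only, 1 was bound (11.1%, exact interval 0.281 to 48.2%), where other genes of like length had 37.2%. It was C4H, the cinnamate 4-hydroxylase that opens the phenylpropanoid pathway, with fold enrichments of 2.56 in replicate 1 and 2.16 in replicate 2 and summits 420 and 429 bp from its start. KAO2, GA3, BR6OX1, BR6OX2, FAH1, AOS and CYP79A2 had no peak, and HPL1 had one in replicate 1 only (1.82). With these genes added to the members, 18 genes were bound.

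The electron donors of P450 enzymes gave 3 bound genes of 9 (33.3%), near the 28.2% of other genes of like length. ATR1, a P450 reductase, had 2.00 in replicate 1 and 1.43 in replicate 2, and ATR2, the other reductase, had a peak in replicate 1 only (1.82). CBR, the cytochrome b5 reductase, had 2.78 in replicate 1 and a peak in replicate 2 as well, and CB5LP, a cytochrome b5-like protein, had 2.42 in replicate 1 and 1.57 in replicate 2. Of the cytochrome b5 genes, CB5-A and CB5-E had a peak in replicate 1 only (1.98 and 1.87) and CB5-B, CB5-C and CB5-D had none. None of the 12 loci annotated as pseudogenes with a CYP symbol had a peak in either replicate. Of all protein-coding genes, not matched for length, 33.8% had a peak in replicate 1 and 31.4% in replicate 2. CYP77A5P, which was bound, is annotated as protein-coding and is not among the 12.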
